A study of Mus musculus with 3 samples.

Results

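NUR77 peaks in the replication-dependent histone gene clusters of the mouse were described from 3 stretches of the genome, 2 of the Hist1 cluster on chromosome 13 and 1 of the Hist2 cluster on chromosome 3. The stretches were 21.70 to 22.20 Mb (called Hist1 proximal here, as the nearer to the start of the chromosome) and 23.50 to 23.90 Mb (Hist1 distal) of chromosome 13, and 96.00 to 96.12 Mb (Hist2) of chromosome 3, in build mm9. The members were chosen by measured values, the positions of these peaks, and the stretches were proposed with the peaks known, so peak numbers, spacing, widths and scores within them are given as descriptions with no test. A peak or region belonged to a stretch if its centre lay in it. Of the 9800 regions of the series with a peak in at least 2 of 3 replicates, 50 were in these stretches, with 12 in Hist1 proximal, 30 in Hist1 distal and 8 in Hist2. The peak lists held 42 of 6777 peaks of replicate 1, 104 of 37307 of replicate 2 and 48 of 8862 of replicate 3 there. The positions of the clusters were given with the rule, and no mm9 annotation was used here, so they could not be checked against gene models and no peak is assigned to a gene.

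All samples belong to 1 group of 3 replicates. They are RAW264.7 cells, a mouse macrophage line, carrying the pINDUCER20b-HA-NUR77 transgene, with 6 dishes per replicate and 1 µg/mL doxycycline for 18 hours. NUR77 carried an HA tag and was overexpressed from the inducible construct, and chromatin was precipitated with an antibody against that tag after cross-linking with Di(N-succinimidyl) glutarate and formaldehyde. Samples without doxycycline, without the tag or of input chromatin were not analysed here, so enrichment at these loci is not set against a background of the same cells. The labels give replicates their own dishes and do not say more about their independence. The read depth of the samples is not known from peak lists. The replicate 2 list was 5.50 times as long as that of replicate 1 and 4.21 times as long as that of replicate 3, which bears on every count of peaks or of shared peaks given here.

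Replication-dependent histone genes encode the linker histone H1 and the core histones H2A, H2B, H3 and H4, and are transcribed mainly in S phase, when new DNA is packed into nucleosomes. They are short, lack introns, lie close together in clusters, and give messenger RNAs that end in a stem-loop in place of a poly(A) tail. Their transcription is gathered at a nuclear structure, the histone locus body, whose activator NPAT is regulated through the cell cycle. NUR77, encoded by Nr4a1, is an orphan nuclear receptor that is rapidly induced in stimulated macrophages and binds DNA as a monomer at the NBRE element, an AGGTCA hexamer preceded by a pair of A bases.

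The histone gene list held 66 genes by symbol in the RefSeq gene table of GRCm38, 56 on chromosome 13 and 10 on chromosome 3, of which 2 were pseudogenes. Chromosome 13 had 6 H1, 15 H2A, 15 H2B, 9 H3 and 11 H4 genes, and chromosome 3 had 4 H2A, 2 H2B, 3 H3 and 1 H4 gene. On chromosome 13 they formed 2 runs. The first, from H2bc13 to H2bc11, had 24 histone genes with 31 transfer RNA genes and the coding genes Zfp184, Pom121l2 and Prss16 among them. Between the runs lay 75 entries with vomeronasal receptor names, 46 transfer RNA genes, which RNA polymerase III transcribes, and 26 others. Only 41 genes between the runs were protein-coding, so not all of the 75 were coding genes. A second run from H4c8 to H2ac1 had 32 histone genes with Hfe, an iron metabolism gene, Trim38 and the Slc17a1 to Slc17a4 transporter genes among them. Only the order and the names were taken from this table, since its build differs from that of the peaks.

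Promoter sequences of RefSeq, from 250 bases before to 50 after the gene start in GRCm38.p6, were found for 59 of the 66 genes and searched on both strands. No histone promoter held the NBRE letters AAAGGTCA (0 of 59 genes, which allows a share of up to 5.08%, taken as 3 counts of the total), against 1.70% of the 27025 genes with a promoter. The AGGTCA hexamer, which is part of the NBRE, was in the promoters of 2 of 59 genes, H2bc22 and H3c11, against 18.1% of all. The CCAAT box letters were in 51 of 59 (41.1% of all), TATAAA in 34 (15.7% of all) and the H2B octamer ATTTGCAT in 13 (1.97% of all), 7 H2B and 6 H2A genes. A gene counted if any of its promoter windows matched. There were 60 windows for the 59 histone genes and 32851 for all 27025 genes, so the shares of all genes rest on more windows per gene. Matches were counted per gene, so a site in overlapping promoter windows of neighbouring H2A and H2B genes counted for both. The octamers of H2ac1 and H2bc1, of H2ac8 and H2bc8, and of H2ac12 and H2bc12 were such shared sites. All 6 H1, 17 H2A, 15 H2B and 10 H3 genes with a promoter had CCAAT, and 3 of 11 H4 genes did. A match counted at any position of the window, so not every match lies where a promoter box would. H3c14 and H3c15 had CCAAT only after the gene start. TATAAA lay 32 bases before the start in H4c4, 250 before it in H4c6 and 41 after it in H4c1. A match, or its lack, describes only these windows, and sequence under the peaks was not read. Shown next are bases before the gene start of H1f4, for its CCAAT and TATAAA letters, of H2bc8, for its octamer and TATAAA (its CCAAT lies farther from the start), of H4c1, 1 of the 3 H4 genes with CCAAT, and the longer stretch of H3c11, for the AGGTCA match. Capitals mark any of the 5 motifs on either strand, so that ATTGG is CCAAT and TGACCT is AGGTCA on the other strand. The H1f4, H3c11 and H4c1 genes are on the minus strand and H2bc8 on the plus strand, and each sequence is written 5′ to 3′ along its gene.
H1f4: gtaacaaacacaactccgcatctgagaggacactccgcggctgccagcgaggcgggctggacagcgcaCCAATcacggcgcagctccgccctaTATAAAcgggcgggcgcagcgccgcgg
H2bc8: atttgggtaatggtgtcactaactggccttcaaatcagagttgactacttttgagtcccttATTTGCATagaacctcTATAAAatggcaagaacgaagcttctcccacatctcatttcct
H4c1: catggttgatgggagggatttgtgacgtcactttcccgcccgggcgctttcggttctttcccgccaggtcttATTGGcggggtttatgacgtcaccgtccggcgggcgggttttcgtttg
H3c11: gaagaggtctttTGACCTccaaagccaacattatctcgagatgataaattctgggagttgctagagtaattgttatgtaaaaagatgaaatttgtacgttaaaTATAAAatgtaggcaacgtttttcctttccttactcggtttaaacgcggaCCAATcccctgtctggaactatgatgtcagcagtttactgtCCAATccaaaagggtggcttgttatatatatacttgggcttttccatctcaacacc

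Some histone promoters share identical stretches of sequence. Promoters of 12 of the 59 genes shared a stretch of 50 or more bases exactly with the promoter of another histone gene elsewhere, and 4 of these were among the 8 Hist2 genes with a promoter. Promoters of other genes were not searched for such stretches, so no share over all promoters is given. The H2A and H2B genes also form 10 divergent pairs whose promoter windows overlap. How reads that match several places were treated is not given in the sources used here, so peaks over such shared stretches are uncertain.

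Peaks were denser in each stretch than over the genome in every list. Hist1 distal held 25 peaks of replicate 1, 55 of replicate 2 and 28 of replicate 3, or 62.5, 137.5 and 70.0 peaks per Mb. Relative to all nuclear chromosomes these were 24.5, 9.79 and 21.0 times the average (mean 18.4 ± 7.68, SD, n = 3). Hist2 had 8, 14 and 8 peaks, which was 26.1, 8.30 and 20.0 times the average (mean 18.1 ± 9.05). Hist1 proximal was less dense, with 9, 35 and 12 peaks, or 7.05, 4.98 and 7.19 times the average (mean 6.41 ± 1.24). In all 3 stretches the relative density was lowest in replicate 2, which has the longest list. Over the 3 stretches the ratio of replicate 2 to replicate 1 peaks was 2.48, against 5.50 over the lists. By stretch it was 3.89 in Hist1 proximal, 2.2 in Hist1 distal and 1.75 in Hist2. The 3 densest 1 Mb bins outside the stretches, on chromosomes 14, 10 and 16, had ratios of 2.5, 3.45 and 3.67. A ratio below that of the lists is therefore not particular to the histone stretches. Hist1 distal and Hist2 did not differ beyond the spread between lists, and Hist1 proximal lay below both in each list.

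Regions were sparse between the chromosome 13 stretches, at 0.769 per Mb, against 3.69 over all nuclear chromosomes. On the outer sides there were 4 per Mb before Hist1 proximal and 7.5 per Mb after Hist1 distal. Between the 2 stretches, over 1.3 Mb, replicate 1 had 1 peak, replicate 2 had 3 and replicate 3 had none. This was a mean density of 0.155 ± 0.151 times the average (SD, n = 3). The single region of this interval lay at 23390581 to 23390869. The 0.5 Mb before Hist1 proximal had 1, 20 and 1 peaks, and the 0.4 Mb after Hist1 distal had 3, 13 and 3, or 1.41 ± 1.25 and 2.50 ± 0.382 times the average. Beside Hist2 the mean densities were higher. The 0.12 Mb before it had 0, 7 and 3 peaks and the 0.12 Mb after it had 2, 7 and 3, or 3.88 ± 3.75 and 6.06 ± 1.72 times the average. At the borders of the stretches, regions just inside lay 109 and 64.0 kb from the edges of Hist1 proximal, 18.6 and 38.9 kb from those of Hist1 distal and 30.9 and 15.2 kb from those of Hist2. The next regions outside lay 281 kb before Hist1 proximal, 109 kb before and 287 kb after Hist1 distal, and 35.7 kb before and 12.7 kb after Hist2.

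**Figure D1:**
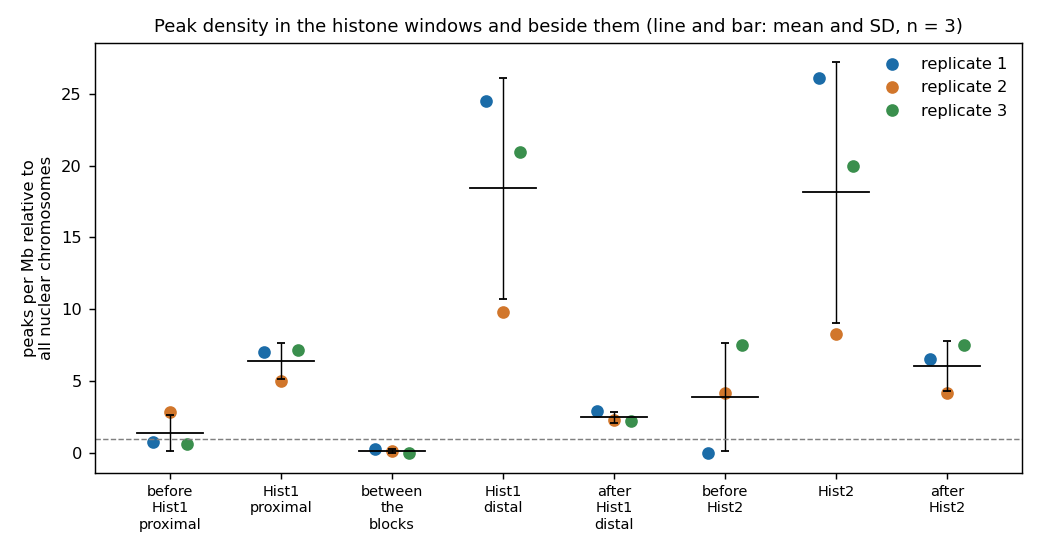
Peaks per Mb relative to all nuclear chromosomes (vertical axis, no unit) in the histone windows and the stretches beside them; points are the 3 replicates, the line and bar are the mean and SD, and the dashed line is the genome average. Hist1 distal and Hist2 have means of 18.4 and 18.1, and the stretch between the Hist1 windows has 0.155.

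Regions of at least 2 replicates lay a few kb apart. Over the 47 pairs of neighbours within a stretch, the median distance between centres was 7.02 kb, with quartiles of 3.93 and 21.1 kb, against a median of 53.5 kb over all regions. The median was 6.42 kb in Hist1 distal, 6.975 kb in Hist2 and 25.8 kb in Hist1 proximal. The peaks of each list by themselves had medians of 6.83, 5.40 and 8.63 kb over the 3 stretches in replicates 1, 2 and 3 (mean 6.95 ± 1.62, SD, n = 3), against 77.5, 16.8 and 58.8 kb over the lists. Another region centre lay within 10 kb for 38 of 50 regions (76.0%, 95% Wilson interval 62.6 to 85.7), against 30.8% of all regions, and distances under 5 kb made up 16 of the 47 (34.0%, against 9.15% of all). Hist1 distal had 25 of 30 such regions, Hist1 proximal 7 of 12 and Hist2 6 of 8.

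**Figure D2:**
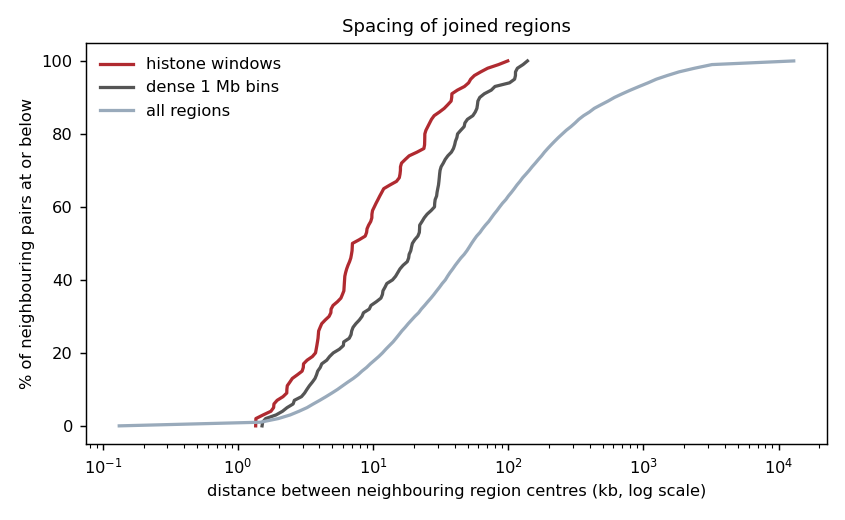
Cumulative distribution of the distance between neighbouring region centres (horizontal axis in kb, log scale; vertical axis in % of pairs) for the histone windows, the 3 densest other 1 Mb bins and all regions. The medians are 7.02 kb for the histone windows and 53.5 kb for all regions.

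Joined at 10 kb, the regions formed 10 groups of 2 or more. The largest was at 23808233 to 23845180 of chromosome 13, with 10 regions over 36.9 kb, of which 5 had all 3 replicates, and 4 groups in the genome were at least as large, itself included. Next was 23627020 to 23677169, with 8 regions over 50.2 kb and 4 of all 3 replicates, a size that 6 groups reached. In Hist2 the group at 96041968 to 96056069 had 4 regions over 14.1 kb, all of which had all 3 replicates, and 83 groups reached that size. The tightest group of Hist1 proximal, at 21842433 to 21846882, had 3 regions in 4.45 kb, again all of all 3 replicates, and 274 groups were as large. Counted in fixed 100 kb bins, the bin of Hist1 distal from 23800001 had 11 regions and that from 23600001 had 10. Of the 26558 bins of the nuclear chromosomes, 3 and 5 had at least as many, with the Hist1 distal bins themselves included. The closest neighbours were 1.35 kb apart in Hist1 distal (23843520 to 23844130 and 23845170 to 23845180), 1.83 kb in Hist1 proximal (21844670 to 21845130 and 21846570 to 21846882) and 2.53 kb in Hist2 (96048868 to 96049290 and 96051441 to 96051769). The longest intervals lay after 23524633 to 23524982 (67.8 kb), 21903970 to 21904369 (99.1 kb) and 96073918 to 96074140 (24.0 kb), and the first 109 kb of Hist1 proximal had no region.

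**Figure D3:**
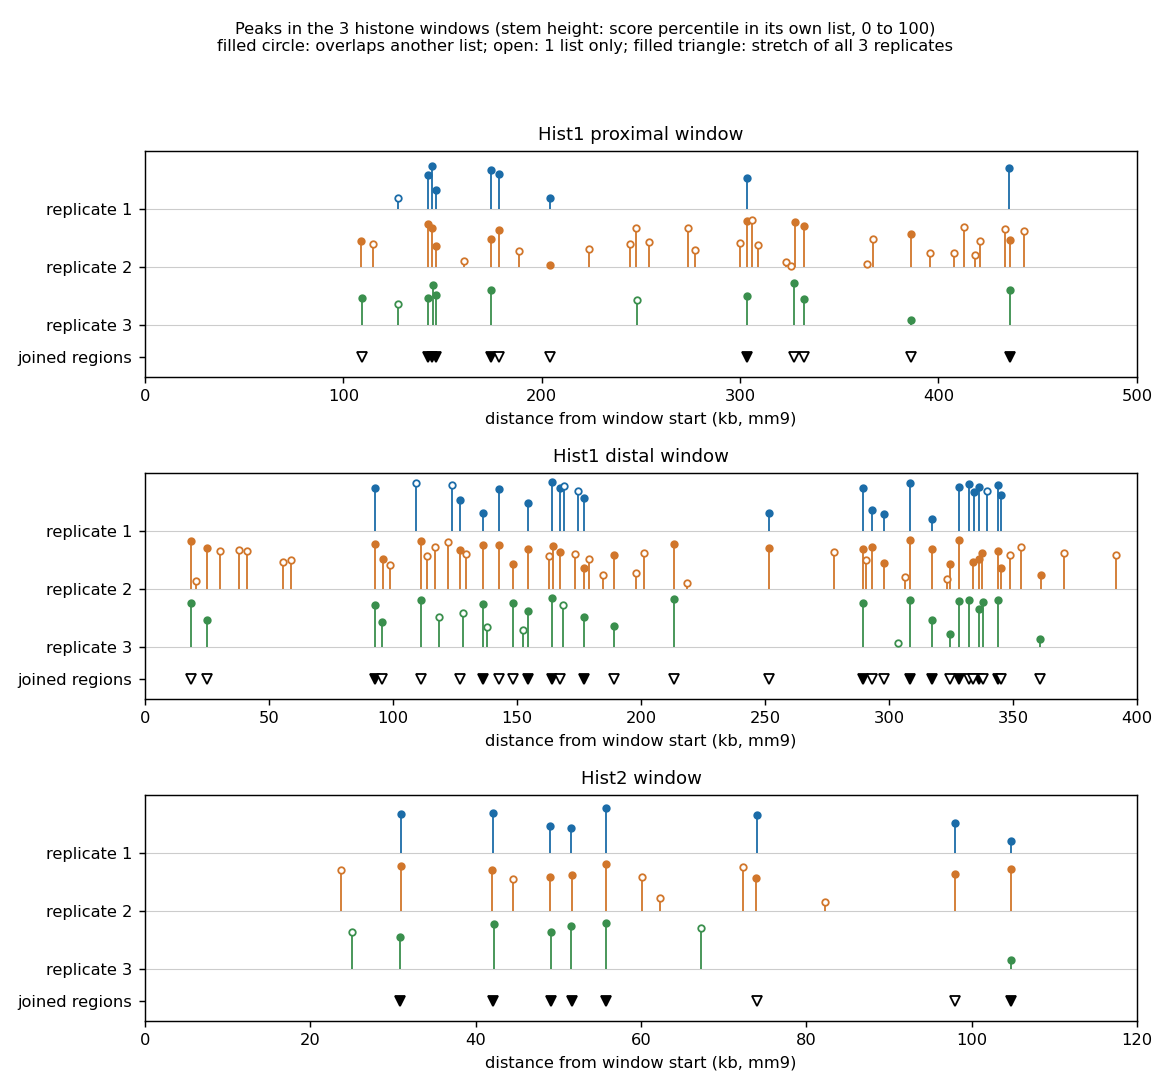
Positions of all member peaks (horizontal axis in kb from the start of each window) in replicates 1 to 3, with stem height as the score percentile in the peak's own list, filled circles for peaks that overlap another list and open circles for peaks of 1 list. Triangles are the 50 joined regions, filled for the 23 with a stretch of all 3 replicates. Another region centre lies within 10 kb for 38 of the 50.

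A stretch covered by all 3 replicates was present in 23 of the 50 regions (46.0%, Wilson interval 33.0 to 59.6), close to the 47.8% of all 9800 regions. It was 6 of 12 in Hist1 proximal, 11 of 30 in Hist1 distal and 6 of 8 in Hist2. These shares have wide intervals, 25.4 to 74.6, 21.9 to 54.5 and 40.9 to 92.9%. Of the other 27 regions, 14 had peaks of replicates 2 and 3, 12 of replicates 1 and 2, and 1 of replicates 1 and 3. Replicate 2 was thus present in 49 of 50, against 98.3% of merged regions over the genome, and replicates 1 and 3 without 2 made up 1.73% there. Median region width was 355.5 bp (350 bp over all regions), from 11 bp at 23845170 to 23845180 to 687 bp. The median was 400 bp in regions of all 3 replicates and 261 bp in those of 2. Width is the length that at least 2 lists cover, so it tends to be greater with 3 lists by construction. The same split over all regions is not given here. The region of 11 bp is the overlap of peaks of 350 bp in replicate 1 and 250 bp in replicate 2.

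Scores are the authors' own value per peak, with no stated scale, and were used only as percentiles within a list, where 100 is the best. Peaks of the histone stretches scored above the middle of each list, with median percentiles of 78.6, 68.7 and 71.6 in replicates 1, 2 and 3 (mean 73.0 ± 5.12, SD, n = 3). Hist1 distal had medians of 86.1, 72.2 and 81.2, Hist2 of 69.5, 73.5 and 78.4, and Hist1 proximal of 70.0, 52.2 and 56.1. The order of Hist1 proximal and Hist2 was therefore not the same in all lists, as replicate 1 gave them 70.0 and 69.5. The best-scored 10% of the list (10.0% in each list by construction) held 10 of 42 peaks in replicate 1 (23.8%), 13 of 104 in replicate 2 (12.5%) and 10 of 48 in replicate 3 (20.8%). Of these, 9, 7 and 8 were in Hist1 distal. Low scores were also present, and 9, 28 and 11 peaks were at or under the 50th percentile in replicates 1, 2 and 3.

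**Figure D4:**
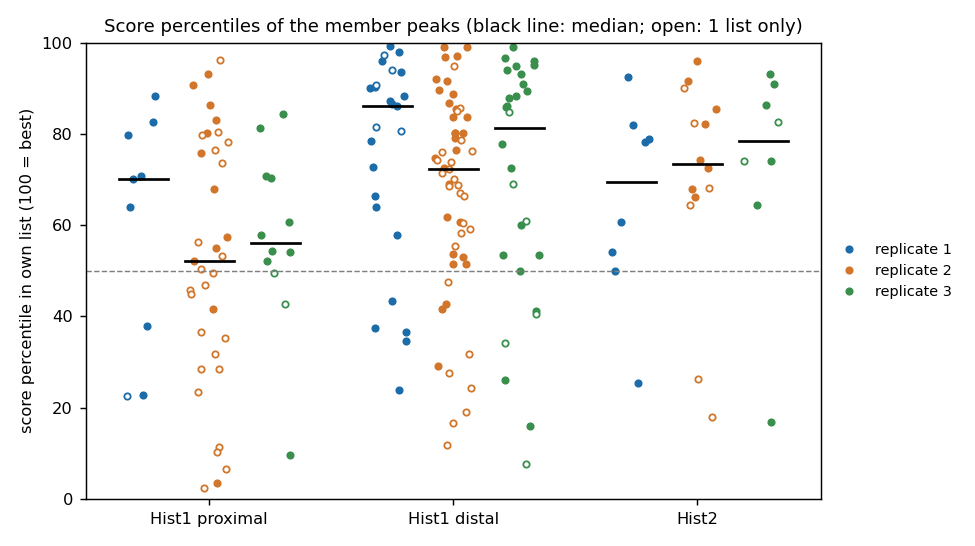
Score percentile of each member peak in its own list (vertical axis, 100 is the best score) by window and replicate, with the median as a black line and open circles for peaks of 1 list only. Medians lie between 52.2 and 86.1, and single peaks between 2.49 and 99.3.

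Among the 23 regions of all 3 replicates, the 3 with the highest mean percentile over the lists lay in Hist1 distal. The region at 23808233 to 23808919, the widest at 687 bp, was at percentiles 97.9, 99.1 and 96.0 in replicates 1, 2 and 3, with ranks of 143, 335 and 353. The rank in replicate 2 is shared by the 549 peaks at the score 958.844. A second region with that tied score, at 23828020 to 23828582, had ranks of 678, 335 and 616. Both were high in all 3 lists. At 23663920 to 23664519 lay the peak with the best rank of the stretches in replicates 1 and 3, rank 48 (percentile 99.3) and rank 80 (99.1). In replicate 2 the same region had rank 4922 (86.8), and its replicate 2 peak centre was up to 298 bp from those of the other lists, the widest offset among the 23 regions.

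Of the remaining 8 regions of all 3 replicates in Hist1 distal, 3 were above the 75th percentile in each list. They were 23592420 to 23592882 (87.1, 92.1 and 85.9 in replicates 1, 2 and 3), 23789320 to 23789680 (86.6, 80.2 and 88.4) and 23843520 to 23844130 (93.5, 76.5 and 94.1). Replicate 1 ranked 23836220 to 23836582 at 90.2, with 61.8 and 77.7 in replicates 2 and 3. The lists differed most at 23635933 to 23636419 (37.5, 88.8 and 86.0) and at 23817233 to 23817682 (24.0, 80.3 and 53.5), which were low in replicate 1 and high in replicate 2. The rest were 23654270 to 23654632 (57.8, 80.3 and 72.5) and 23676931 to 23677169 (66.3, 41.7 and 60.1).

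In Hist2 a single region stood above the 90th percentile in all lists. It lay at 96055520 to 96056069, was the widest there at 550 bp, and had ranks of 517, 1458 and 609 (percentiles 92.4, 96.1 and 93.1), the best of Hist2 in each list. The region at 96041968 to 96042240 had 81.9, 82.2 and 90.9 and that at 96030720 to 96031067 had 78.8, 91.5 and 64.3. Between them and the first, 96048868 to 96049290 (54.1, 68.0 and 74.0) and 96051441 to 96051769 (50.1, 72.6 and 86.4) were at lower percentiles in replicate 1 than in replicate 3. At the far end, 96104670 to 96104919 was at 25.3 and 16.9 in replicates 1 and 3 and at 85.4 in replicate 2, so replicate 2 stood apart from the others there.

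Hist1 proximal had no region above the 90th percentile in all lists. Its best-scored region of all 3 replicates was 21844670 to 21845130, at 88.2, 80.1 and 81.4 in replicates 1, 2 and 3. On either side of it lay 21842433 to 21842782 (70.0, 86.3 and 54.2) and 21846570 to 21846882 (37.9, 41.6 and 60.6). The others were 21874220 to 21874619 (79.7, 57.5 and 70.3), 22002983 to 22003519 (63.9, 93.2 and 57.9, the widest at 537 bp) and 22135831 to 22136230 (82.6, 55.0 and 70.7). In replicate 3 the best peak was at 22027133 to 22027632 (84.4), which replicate 2 shared at 90.7 and replicate 1 did not list. Over the 3 stretches, 8 of the 23 regions of all 3 replicates were above the 80th percentile in every list and 3 were above the 90th, against 21.1% and 10.7% of all 4681 regions of all 3 replicates.

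The 27 regions of 2 replicates reached from percentile 3.48 to 97.0. Their median percentiles were 70.9, 73.5 and 54.2 in replicates 1, 2 and 3 (13, 26 and 15 peaks), against 79.7, 80.3 and 77.7 for the 23 of all 3 replicates. This contrast is not given over all regions, so it is not shown to be particular to these stretches. Some were among the best-scored of Hist1 distal. The region at 23712933 to 23713430 was at 91.6 in replicate 2 and 96.7 in replicate 3, with the nearest replicate 1 peak 35.8 kb away. At 23518431 to 23518832 these lists had 96.8 and 89.3, and the nearest replicate 1 peak was 73.6 kb away. The lowest values of replicates 1 and 2 among them were at 21903970 to 21904369 in Hist1 proximal, with 22.7 in replicate 1 and 3.48 in replicate 2.

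Over the 3 stretches together, the share of peaks that overlapped another list was below that of the whole list in replicates 1 and 3 and above it in replicate 2. In replicate 1, 36 of 42 peaks overlapped another list (85.7%, Wilson interval 72.2 to 93.3), against 94.3% of the list, and in replicate 3, 38 of 48 did (79.2%, 65.7 to 88.3), against 93.2%. By stretch, in the order Hist1 proximal, Hist1 distal and Hist2, replicate 1 shared 8 of 9, 20 of 25 and 8 of 8 peaks, so its unshared peaks lay mostly in Hist1 distal and Hist2 had none. Replicate 3 shared 10 of 12, 22 of 28 and 6 of 8. The share that overlapped both other lists was 54.8% in replicate 1 (69.1% of the list) and 47.9% in replicate 3 (52.8% of the list). In replicate 2, 49 of 104 peaks were shared (47.1%, 37.8 to 56.6, against 25.7%), with 22.1% overlapping both lists (12.7% of the list). By stretch it shared 12 of 35, 29 of 55 and 8 of 14. The list values lay outside the intervals for sharing with any list, which cover counting error only, and neighbouring peaks are not independent. Among peaks above the 50th percentile, a choice made after these values were seen, sharing was 84.8% in replicate 1 (69.1 to 93.3, against 96.9%), 57.9% in replicate 2 (46.7 to 68.4, against 45.9%) and 86.5% in replicate 3 (72.0 to 94.1, against 95.8%). In the 3 densest other 1 Mb bins, sharing of all peaks was 92.3 to 95.2% in replicate 1, 39.0 to 44.6% in replicate 2 and from 28 of 35 peaks to 96.6% in replicate 3, and their intervals overlapped those of the histone stretches.

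**Figure D5:**
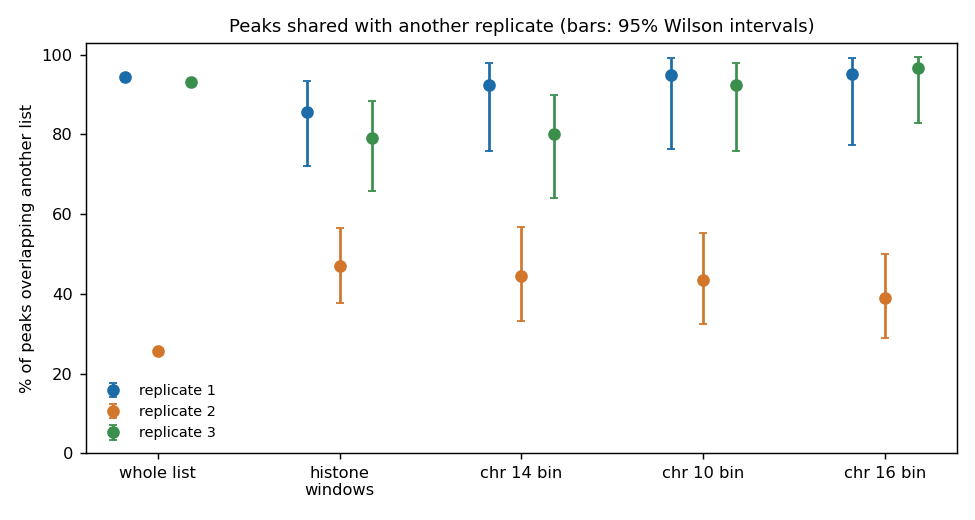
Share of peaks (vertical axis, %) that overlap a peak of another replicate in the whole lists, the histone windows and the 3 densest other 1 Mb bins, with 95% Wilson intervals. In the histone windows replicates 1 and 3 have 85.7 and 79.2%, below their whole lists, and replicate 2 has 47.1%, above its list.

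The order of scores differed between lists. Across overlapping peaks in the stretches, Spearman's rho was 0.31 for replicates 1 and 2 (35 pairs of peaks), 0.76 for replicates 1 and 3 (24 pairs) and 0.50 for replicates 2 and 3 (37 pairs), against 0.69, 0.79 and 0.71 over the lists. These are descriptions across peaks of the same libraries, with no test. Centres of overlapping peaks were a median of 64, 75 and 77 bp apart in the same order, against 41, 46 and 42 bp over the lists.

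Some unshared peaks had high scores. Of the 6 peaks of replicate 1 alone, 3 were in the best-scored 10% of that list, against 8.83% of all 385 peaks that this replicate alone had. Their median percentile was 86.2, against 26.1 for the 385. The 3 best-scored were in Hist1 distal, at 23609120 to 23609569 (rank 178), 23623770 to 23623969 (rank 414) and 23668920 to 23669119 (rank 624). The first lay 1.41 kb from the region at 23610983 to 23611432, which replicate 2 had at rank 1113 (97.0) and replicate 3 at rank 449 (94.9), with no replicate 1 peak. At 23832170 to 23832332 the reverse held for replicate 2: replicates 1 and 3 had ranks of 270 (96.0) and 427 (95.2), and the nearest replicate 2 peak was 1.50 kb away. Replicate 2 alone had 55 peaks, with the best at 22005681 to 22006430 in Hist1 proximal (rank 1439, score 626.84). Its unshared peaks had a median percentile of 58.4 (38.8 for all its unshared peaks), and 3 of the 55 were in the best-scored 10% (5.45%, against 1.85%). The 10 of replicate 3 had a median of 55.2 (30.1 for all its unshared peaks), with none in the best-scored 10% (against 5.61%).

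For 7 of the 27 regions of 2 replicates (25.9%, against 8.63% over all such regions), the list without a peak there had one within 2 kb, and all 7 were in Hist1 distal. This distance was chosen after the values were seen, and it favours dense stretches by construction. The peak names carry running numbers, some of which are absent from the lists. At 21 of the 27 regions (77.8%, against 67.9% over all such regions with a numbered peak on either side), at least 1 number was absent between the neighbouring peaks of the missing list. Why numbers are absent was not tested. At the other 6 regions no number was absent, among them 23610983 to 23611432 in replicate 1. In Hist1 distal, 8 of 33 numbers of replicate 1, 15 of 70 of replicate 2 and 16 of 44 of replicate 3 were absent, or 24.2, 21.4 and 36.4%, against 39.1, 19.7 and 38.8% over the lists. In Hist1 proximal these shares were 52.6, 23.9 and 47.8%, each above its list, and in Hist2 33.3, 17.6 and 38.5%.

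Set beside the 3 densest other 1 Mb bins, on chromosome 14 at 73000001 to 74000000, chromosome 10 at 98000001 to 99000000 and chromosome 16 at 24000001 to 25000000, the histone stretches differed among themselves. Those bins held 31, 30 and 30 regions with median distances of 20.2, 19.7 and 19.3 kb, against 6.42 kb in Hist1 distal, 6.975 kb in Hist2 and 25.8 kb in Hist1 proximal. By these medians, regions were closer than in the bins in Hist1 distal and Hist2 and farther apart in Hist1 proximal. The sizes are not matched, since the stretches span 500 kb (Hist1 proximal), 400 kb (Hist1 distal) and 120 kb (Hist2). A fixed bin of 1 Mb can include sparser parts that raise its median distance, so the contrast depends in part on how the stretches were drawn. Another region lay within 10 kb for 53.3 to 64.5% of the regions of the bins, and for 7 of 12 in Hist1 proximal (58.3%), 6 of 8 in Hist2 and 25 of 30 in Hist1 distal (83.3%). All 3 replicates were present in 19 of 31, 13 of 30 and 18 of 30 of their regions, against 6 of 12, 11 of 30 and 6 of 8 in Hist1 proximal, Hist1 distal and Hist2. The mean of the median percentiles over the lists was 68.7 ± 3.24, 59.0 ± 6.14 and 67.0 ± 3.83 (SD, n = 3) in the bins. It was 59.4 ± 9.37 in Hist1 proximal, 79.8 ± 7.02 in Hist1 distal and 73.8 ± 4.47 in Hist2, so Hist1 proximal lay under 2 of the 3 bins. These were picked for their density as well, so the values are given side by side without a test.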

How the data were processed

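Peak lists of 3 ChIP-seq samples were used. In each, the authors deposited a position and a score per peak, called per sample, in mm9 per the submitters' processing notes. The peak names have the form MACS gives, per the file contents. The caller's version and threshold, the aligner, the use of controls and the scale of the score were not given in the sources used here. A further table the authors deposited lists intervals covered by at least 2 replicates, with replicate names and no score. Rebuilt from the lists, all 19164 intervals had equal borders. In the stretches, names matched for 60 of 96 intervals as written and for 96 with replicates 2 and 3 exchanged, so replicate numbers follow the sample titles.

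Touching intervals were joined. Peaks overlapped from 1 bp. Percentiles are ranks by score within a list, and densities used the mm9 lengths of GenomeInfoDb 1.38.1. The histone stretches, the gene list and the alternatives were chosen with earlier results of these data known. There is no second group and no chance test was run, so errors are 95% Wilson intervals for shares (counting error alone) and SDs for values over lists. Regions named were all those of all 3 replicates and the widest, best-scored, closest and farthest in each stretch. Others named, among them unshared peaks, were chosen after their values were seen. In the gene list, 1 match was by synonym only and 1 pseudogene away from the clusters was left out. The overlap, joining and spacing code was tested on simulated data. Tools were matplotlib 3.10.9, scipy 1.17.1, pandas 2.3.3 and numpy 2.4.6, run in Python 3.11.15.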

Additional observations from a re-analysis of the deposited data

How the results depend on the processing

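The number of regions was 50, and 33 when each list was limited to its 6777 best-scored peaks. This is the length of the replicate 1 list, so only the lists of replicates 2 and 3 were shortened. Leaving out 1 replicate gave 24 to 37 regions, lowest without replicate 2. Median spacing (7.02 kb) was 8.96 kb with the stretches widened by 50 kb, 9.01 kb with the higher-scored 50% of each list, 11.0 kb with equal lists, 11.0 kb for regions of all 3 replicates only, and 8.96 to 11.7 kb leaving out 1 replicate. The spacing of all regions, 53.5 kb, was 68.35 to 133.95 kb under the same alternatives other than the widening. The share of regions with all 3 replicates (46.0%) was 30.3% with equal lists. The share over all regions with equal lists is not given here, so 30.3% cannot be set against that of the full lists. Mean relative density (12.5) was 19.2 with the higher-scored 50%, and 10.7 to 15.1 leaving out 1 replicate. The share with a neighbour (76.0%) was 50.0% within 5 kb (16.9% of all regions) and 86.0% within 20 kb (47.9% of all), and 62.2 to 80.0% leaving out 1 replicate. The mean score percentile (73.0) was 63.7 when only shared peaks were ranked, and 70.2 to 75.1 leaving out 1 replicate. The causes of these shifts were not tested. The other alternatives moved these values by less than the spread between lists or the counting interval. The share with all 3 replicates has no value without a replicate. No paired analysis was possible because only 1 group was sampled. Depth is unknown, so a place without a peak is not shown to be unbound.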
